A study of Mus musculus with 4 samples.

Results

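The 9 genes described here are the transcription factors Prdm1 and Maf and the 7 enzymes Aldh18a1, Cps1, Otc, Ass1, Asl, Arg2 and Gatm, which make or use arginine and its precursors. They were chosen by name and not by their values, and all 9 were found among the 32227 genes of the feature lists. The data were 4 single-cell RNA libraries of intestinal epithelium, 1 from ileum and 1 from jejunum of each of 2 wild-type mice at postnatal day 6. The labels name no transgene and no treatment. The libraries ileum 1 and jejunum 1 came from the mouse of batch 1, labelled male, and ileum 2 and jejunum 2 came from the mouse of batch 2, labelled female, so that mouse, labelled sex and batch cannot be told apart. The transcripts of Xist and of the Y-linked gene Eif2s3y went against these labels: Xist was at 575 and 466 CPM (UMI counts scaled to a common total) in ileum 1 and jejunum 1 and at 0.705 and 0.907 CPM in ileum 2 and jejunum 2, whereas Eif2s3y was at 88.1 and 67.0 CPM in ileum 2 and jejunum 2 and at 0.0115 and 0.119 CPM in the other two. The mice are therefore called mouse 1 and mouse 2 and not by sex.

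The suckling intestine is a known site of arginine synthesis, because milk is poor in this amino acid. In mitochondria, Aldh18a1 turns glutamate into the common precursor of proline and ornithine, Cps1 makes carbamoyl phosphate from ammonia and bicarbonate, and Otc joins carbamoyl phosphate to ornithine to give citrulline. In the cytosol, Ass1 and Asl convert citrulline into arginine. Arg2 splits arginine into ornithine and urea, and Gatm transfers its amidino group to glycine in the first step of creatine synthesis. Prdm1, also called Blimp-1, is a zinc finger repressor that maintains the neonatal state of intestinal epithelium before weaning, and Maf is a basic leucine zipper factor that acts in enterocytes.

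Promoters, the 250 bases upstream of the start site, were read from RefSeq on build GRCm38.p6 and matched 5 of the 9 genes (Prdm1, Ass1, Otc, Aldh18a1 and Gatm). Of these, 3 are shown: Gatm, which differed most between regions, Otc, which ran opposite to Gatm across enterocyte clusters, and Aldh18a1, the only one of the 5 to hold a searched motif. They lie at chr2:122611278-122611527 on the minus strand for Gatm, chrX:10252055-10252304 on the plus strand for Otc and chr19:40588464-40588713 on the minus strand for Aldh18a1, and are written 5′ to 3′ with the last base next to the start site. Capitals mark a motif match.
Gatm: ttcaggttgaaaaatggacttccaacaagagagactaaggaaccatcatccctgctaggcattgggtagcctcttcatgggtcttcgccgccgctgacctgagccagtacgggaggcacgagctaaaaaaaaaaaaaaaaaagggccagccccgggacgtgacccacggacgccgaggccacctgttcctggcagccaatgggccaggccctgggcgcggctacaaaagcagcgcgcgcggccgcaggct
Otc: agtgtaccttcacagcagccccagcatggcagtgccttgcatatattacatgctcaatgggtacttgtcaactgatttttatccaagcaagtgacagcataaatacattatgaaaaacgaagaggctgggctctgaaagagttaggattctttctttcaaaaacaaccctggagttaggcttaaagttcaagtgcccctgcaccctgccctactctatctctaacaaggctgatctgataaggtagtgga
Aldh18a1: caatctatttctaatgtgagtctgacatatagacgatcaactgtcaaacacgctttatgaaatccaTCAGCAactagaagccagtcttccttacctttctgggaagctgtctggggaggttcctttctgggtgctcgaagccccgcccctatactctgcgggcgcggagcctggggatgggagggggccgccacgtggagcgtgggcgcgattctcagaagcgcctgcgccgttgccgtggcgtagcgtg
The letters GAAAGT, the core of the site bound by Prdm1, and TGCTGA, a part of the site bound by Maf proteins, were searched on both strands, and these motifs do not overlap each other. GAAAGT was in none of the 5 promoters and in 12.3% of the 32851 promoters of the same length. TGCTGA was in the Aldh18a1 promoter alone, on the opposite strand, with its first printed base at position -184 from the start site, and in 16.1% of all promoters. A match describes these letters in this window only.

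After the filters of the study, 30521 of 36202 called cells remained, 5722 to 8997 per library. Depth and quality moved with region: the median count of unique molecular identifiers (UMIs) per kept cell was 12048 and 10916 in the ileum libraries against 4690 and 5884 in the jejunum libraries, and the median mitochondrial share was 3.61% and 3.74% against 6.37% and 9.94%. No pair of libraries shared more than 1 cell barcode. By their markers, 4689 to 7722 cells per library were enterocyte-like and 356 to 408 were stem/progenitor-like (called stem-like below), with smaller enteroendocrine-like (46 to 73), immune-like (27 to 53) and goblet-like (3 to 9) classes and 518 to 754 cells that no marker list named. Summed over the 14 enterocyte markers, the level in enterocyte-like cells was 20271 and 23997 CPM in ileum and 47912 and 50058 CPM in jejunum. The 17 stem and progenitor markers together were at 5886 to 7676 CPM in stem-like cells and 264 to 314 CPM in enterocyte-like cells. The enterocyte markers were not absent from stem-like cells, in which they summed to 2866 and 3415 CPM in ileum and 5695 and 7246 CPM in jejunum. The immune-like class held 12578 to 21819 CPM of enterocyte markers and was not compared further.

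A level below, in CPM, is the UMIs of a gene scaled to those of all genes, summed over the cells of a class in a library. Levels of a gene are compared between classes and libraries, and not between genes, since 3′ tags and capture differ by gene. The class differences are descriptions with no test, because the cells were sorted into classes by their expression. A region difference is the log2 fold change of ileum over jejunum with its standard error (SE), from edgeR's quasi-likelihood test over the 4 library sums, and was called at a Benjamini-Hochberg adjusted p under 0.05 across all genes tested. Across all genes tested, 6.73% were called in enterocyte-like cells and 1.83% in stem-like cells, and the 2 ileum values lay wholly above or below the 2 jejunum values for 61.7% and 43.0% of genes, so that such a separation alone is common here.

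Prdm1 had nearly the same level in crypt and villus cells. In enterocyte-like cells it was at 199.8 and 167 CPM in ileum 1 and ileum 2 and at 158 and 96.6 CPM in jejunum 1 and jejunum 2. In stem-like cells it was at 196 and 158 CPM in the ileum libraries and at 149 and 99.9 CPM in the jejunum libraries. The ratio of enterocyte-like to stem-like cells was 0.967 to 1.06 over the 4 libraries, and both ileum libraries lay above both jejunum libraries in either class. The region difference was 0.42 ± 0.23 (SE, n = 2 against 2; edgeR adjusted p = 0.287) in enterocyte-like cells and 0.46 ± 0.19 (edgeR adjusted p = 0.347) in stem-like cells, and neither was called. In the fit that pairs the 2 regions of a mouse, the stem-like difference was 0.47 ± 0.12 and was called (edgeR adjusted p = 0.0234), while that in enterocyte-like cells was not. Without jejunum 1 the stem-like difference was 0.77 and was called as well (edgeR adjusted p = 0.0291).

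Maf was mainly a gene of the enterocyte-like class. It was at 1211 and 1268 CPM in ileum 1 and ileum 2 and at 951 and 940 CPM in jejunum 1 and jejunum 2, which is 7.55 to 8.89 times its level in the stem-like cells of the same library. In stem-like cells it was at 160.5 and 156 CPM in ileum and 107 and 121 CPM in jejunum. The region difference was 0.28 ± 0.14 (edgeR adjusted p = 0.256) in enterocyte-like cells and 0.43 ± 0.15 (edgeR adjusted p = 0.219) in stem-like cells. With the pairing of regions by mouse the stem-like difference was called at 0.43 ± 0.11 (edgeR adjusted p = 0.0347). The stem-like level of Maf depended on the clustering: with clusters formed without integration of the libraries it was 273 and 224 CPM in ileum and 124 and 122 CPM in jejunum, a difference of 0.97 that was called (edgeR adjusted p = 0.00360), and with clusters formed without the 9 genes and their pathway it was 0.91 and called (edgeR adjusted p = 0.0101). In those 2 sets of stem-like cells the enterocyte markers summed to 4447 and 4952 CPM in ileum 1, against 2866 CPM in the main set.

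**Figure D1:**
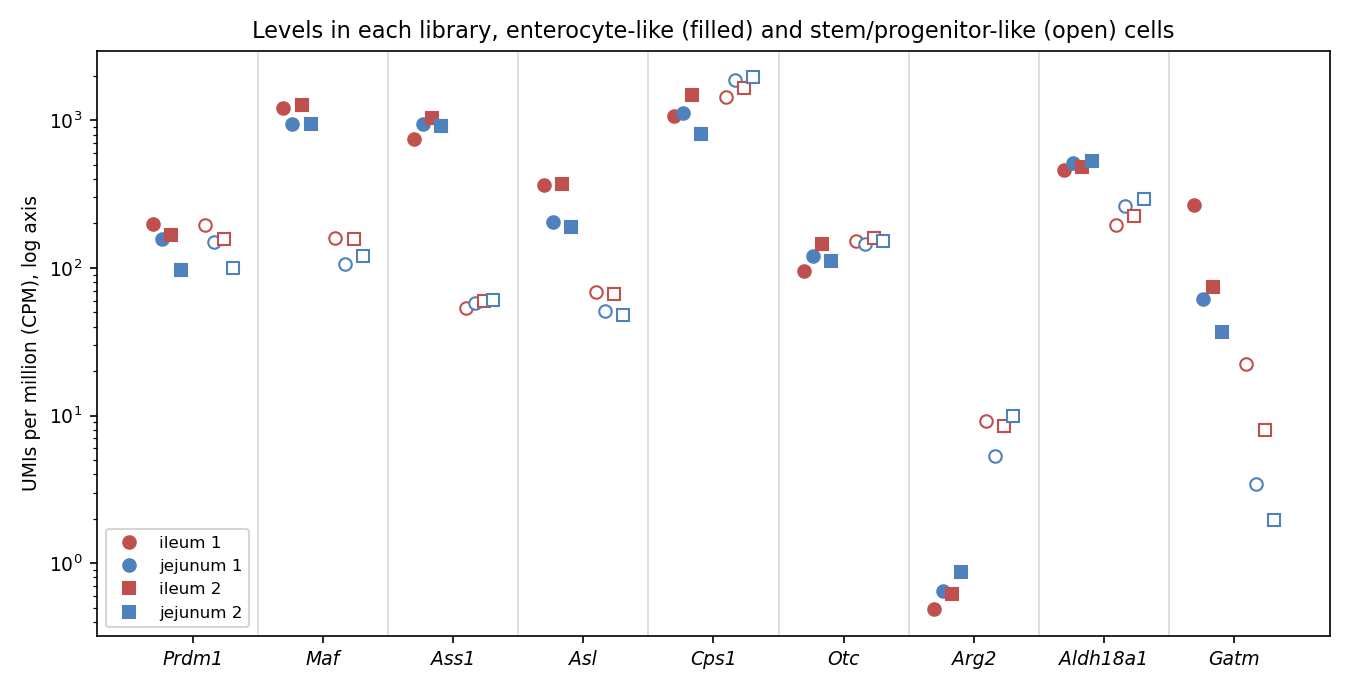
Level of each of the 9 genes in CPM (log axis), with 1 point per library, filled for enterocyte-like cells and open for stem/progenitor-like cells. Prdm1 points of both classes fall together between 96.6 and 199.8 CPM, Maf, Ass1, Asl, Aldh18a1 and Gatm lie higher in enterocyte-like cells, and Cps1, Otc and Arg2 lie higher in the stem/progenitor-like cells of each library.

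Of the genes that lead to citrulline, Aldh18a1 was higher in enterocyte-like cells, whereas Cps1 and Otc were higher in stem-like cells. Aldh18a1 was at 464 and 483 CPM in the enterocyte-like cells of ileum 1 and ileum 2 and at 516 and 533 CPM in those of jejunum 1 and jejunum 2. Its stem-like levels were 197 and 226 CPM in ileum and 263 and 292 CPM in jejunum, so that the class ratio was 1.82 to 2.36. Aldh18a1 was the 1 member of this branch to lie lower in ileum than in jejunum in every library of both classes. The region difference was -0.26 ± 0.14 (edgeR adjusted p = 0.282) in enterocyte-like cells and -0.44 ± 0.15 (edgeR adjusted p = 0.206) in stem-like cells. Paired by mouse, the latter was called at -0.44 ± 0.10 (edgeR adjusted p = 0.0175).

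Cps1, the entry enzyme of the urea cycle, was at 1445 and 1660 CPM in the stem-like cells of ileum 1 and ileum 2 and at 1876 and 1955 CPM in those of jejunum 1 and jejunum 2. In enterocyte-like cells it was at 1067 and 1488 CPM in ileum and at 1117 and 803 CPM in jejunum. The enterocyte-like level was 0.411 to 0.896 times the stem-like level of the same library, so that Cps1 was lower in the enterocyte-like class as a whole in all 4 libraries. This did not hold for every cluster. In ileum 2 the enterocyte-like clusters led by Defa24 and Kcnq1ot1 had 1929 and 1829 CPM, and those led by Apcdd1, Il18 and Hnf4aos had 1797, 1768 and 1767 CPM. All of these were above the stem-like level of that library. In the other libraries every enterocyte-like cluster of at least 20 cells was below the stem-like level. The ileum 2 clusters led by Serpina1a and Snhg20 had 701 and 703 CPM. The stem-like values separated by region, with jejunum higher, and the enterocyte-like values overlapped. Neither region difference was called, at 0.31 ± 0.25 (edgeR adjusted p = 0.447) in enterocyte-like and -0.35 ± 0.12 (edgeR adjusted p = 0.209) in stem-like cells.

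The difference between these region changes was itself tested in a fit of all 8 class sums with the library as a block, in which 8.33% of 18991 genes were called. Cps1 was the only one of the 9 genes called there, at 0.69 ± 0.16 log2 (edgeR adjusted p = 0.00766): relative to stem-like cells, its ileum-over-jejunum ratio was higher in enterocyte-like cells. Without jejunum 2, the library with the lowest enterocyte-like Cps1, the value was 0.50 and was not called (edgeR adjusted p = 0.0862). Asl had the next adjusted p at 0.42 ± 0.18 (edgeR adjusted p = 0.158).

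Otc, like Cps1, was higher in stem-like cells, and its region differences were small. It was at 153 and 160.4 CPM in the stem-like cells of ileum 1 and ileum 2 and at 146 and 152 CPM in those of jejunum 1 and jejunum 2. Enterocyte-like levels were 94.8 and 146 CPM in ileum and 121 and 112 CPM in jejunum, or 0.620 to 0.911 times the stem-like level. The ileum and jejunum values overlapped in enterocyte-like cells and lay next to each other in stem-like cells, and the region differences were -0.05 ± 0.25 (edgeR adjusted p = 0.904) and 0.03 ± 0.14 in the same order.

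The enzymes that turn citrulline into arginine were concentrated in enterocyte-like cells. Ass1 was at 753 and 1042 CPM in ileum 1 and ileum 2 and at 949 and 914 CPM in jejunum 1 and jejunum 2, and at 53.8 to 61.1 CPM in the stem-like cells of the 4 libraries, a class ratio of 14.0 to 17.5. Its enterocyte-like values overlapped between regions, with a difference of -0.16 ± 0.21 (edgeR adjusted p = 0.659). In stem-like cells the difference was -0.11 ± 0.17. The stem-like value turned to 0.66 and was called (edgeR adjusted p = 0.0407) with clusters formed without integration, in which Ass1 was at 105, 67.7, 108 and 62.7 CPM in ileum 1, jejunum 1, ileum 2 and jejunum 2.

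Asl was the member that differed between regions in enterocyte-like cells. It was at 364 and 373 CPM in ileum 1 and ileum 2 and at 205 and 191 CPM in jejunum 1 and jejunum 2. Replicates of a region thus lay close together and the regions far apart. The difference was 0.79 ± 0.13 (SE, n = 2 against 2; edgeR adjusted p = 0.0333), the only one of 9 members called, against 6.73% of all genes. The call was lost in each of the 4 fits that left out 1 library, at 0.72 to 0.85 with adjusted p of 0.0585 to 0.101 from edgeR, and held in the 11 other settings tried, at 0.73 to 0.87. In stem-like cells Asl was at 68.8 and 66.8 CPM in ileum and 51.0 and 48.3 CPM in jejunum, with a difference of 0.40 ± 0.16 that was not called (edgeR adjusted p = 0.329). It was called with clusters formed without integration, at 101 and 80.3 CPM against 54.5 and 49.1 CPM (0.76, edgeR adjusted p = 0.0331), and with clusters formed without the 9 genes and their pathway (0.84, edgeR adjusted p = 0.0276). Without integration the enterocyte markers in stem-like cells summed to 4447 and 4383 CPM in ileum and 6184 and 7148 CPM in jejunum. Without the 9 genes and their pathway they summed to 4952 and 4670 CPM and to 7261 and 8151 CPM. The main set held 2866 and 3415 CPM and 5695 and 7246 CPM in the same order. The class ratio of Asl was 3.95 to 5.58.

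Arg2 was near the limit of detection in enterocyte-like cells. It was at 0.489 to 0.876 CPM there, from 35 to 56 UMIs per library. In stem-like cells it was at 9.26 and 8.46 CPM in ileum 1 and ileum 2 and at 5.33 and 9.86 CPM in jejunum 1 and jejunum 2, from 14 to 30 UMIs. The enterocyte-like level was thus 0.0528 to 0.122 times the stem-like level. No region difference was detectable at this depth, with -0.56 ± 0.34 (edgeR adjusted p = 0.319) in enterocyte-like and 0.16 ± 0.41 in stem-like cells.

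Gatm had the widest spread between libraries. It was at 269 CPM in the enterocyte-like cells of ileum 1, at 74.3 CPM in ileum 2 and at 61.6 and 36.9 CPM in jejunum 1 and jejunum 2. Ileum 1 stood apart from the other three, which lay within a narrower range. In stem-like cells Gatm was at 22.5 and 7.99 CPM in ileum and 3.42 and 1.97 CPM in jejunum, from 51, 17, 9 and 6 UMIs. The ratio of the classes was 9.30 to 18.7. The stem-like difference was 2.46 ± 0.54 (SE, n = 2 against 2; edgeR adjusted p = 0.0424) and was the only one of the 9 called there, against 1.83% of genes, whereas the enterocyte-like difference of 1.67 ± 0.58 was not (edgeR adjusted p = 0.138). Both rested on ileum 1: without it they were 0.54 in enterocyte-like cells and 1.54 in stem-like cells, the latter no longer called (edgeR adjusted p = 0.539). The stem-like call was also lost without jejunum 2 (2.09, edgeR adjusted p = 0.202), under a mitochondrial limit of 10% (2.25, edgeR adjusted p = 0.0806) and with all sums thinned to the smallest (2.73, edgeR adjusted p = 0.0544), and the enterocyte-like difference was called without ileum 2 (2.30, edgeR adjusted p = 0.0302). Paired by mouse, both were called, at 1.46 ± 0.28 (edgeR adjusted p = 0.0390) and 2.38 ± 0.45 (edgeR adjusted p = 0.00403). In each library stem-like Gatm was a smaller fraction of its enterocyte-like level than the summed enterocyte markers were of theirs. The stem-like difference of Gatm is therefore not read as expression by stem-like cells, and the part of enterocyte RNA in it was not tested.

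Enteroendocrine-like cells, 46 to 73 per library, held 7703 to 10790 CPM of the enterocyte markers, and the share of the members' level that comes with them was not tested. Maf was at 509 and 484 CPM in the ileum libraries and 170.4 and 119 CPM in the jejunum libraries there, and Asl at 211 and 107 CPM against 56.8 and 32.9 CPM. Both ileum values were above both jejunum values, as in enterocyte-like cells. The same separation held in this class for Prdm1, Ass1, Cps1, Otc and Aldh18a1. In enterocyte-like cells Ass1, Cps1 and Otc overlapped between regions and Aldh18a1 was lower in ileum. The share of all genes that separate in this class was not computed. Over the 4 libraries Prdm1 was at 28.8 to 128 CPM, Ass1 at 107 to 275 CPM, Cps1 at 173 to 313 CPM, Otc at 12.4 to 46.3 CPM and Aldh18a1 at 153 to 191 CPM, each below the enterocyte-like level of the same library. Arg2 was at 0 to 4.37 CPM, and Gatm was at 128 to 211 CPM, above the enterocyte-like level in all libraries but ileum 1.

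Across the 9 genes, the median region difference in enterocyte-like cells was 0.28, against -0.01 over all genes tested. An unadjusted p under 0.05 was reached by 2 of the 9 in enterocyte-like cells, against 28.3% of all genes tested, by 6 in stem-like cells, against 12.4%, and by 2 in the test between classes, against 21.9%. The pairing by mouse raised the members called from 1 to 2 in enterocyte-like cells and from 1 to 4 in stem-like cells, while the share of all genes called rose to 13.7% and 5.22%. The 6 in stem-like cells were Prdm1, Maf, Asl, Cps1, Aldh18a1 and Gatm. Of these, the stem-like values of Maf, Asl and Gatm are not read as expression by stem-like cells. Maf and Gatm were also among the 4 called with the pairing. The stem-like counts are therefore not read as a region difference of those cells.

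**Figure D2:**
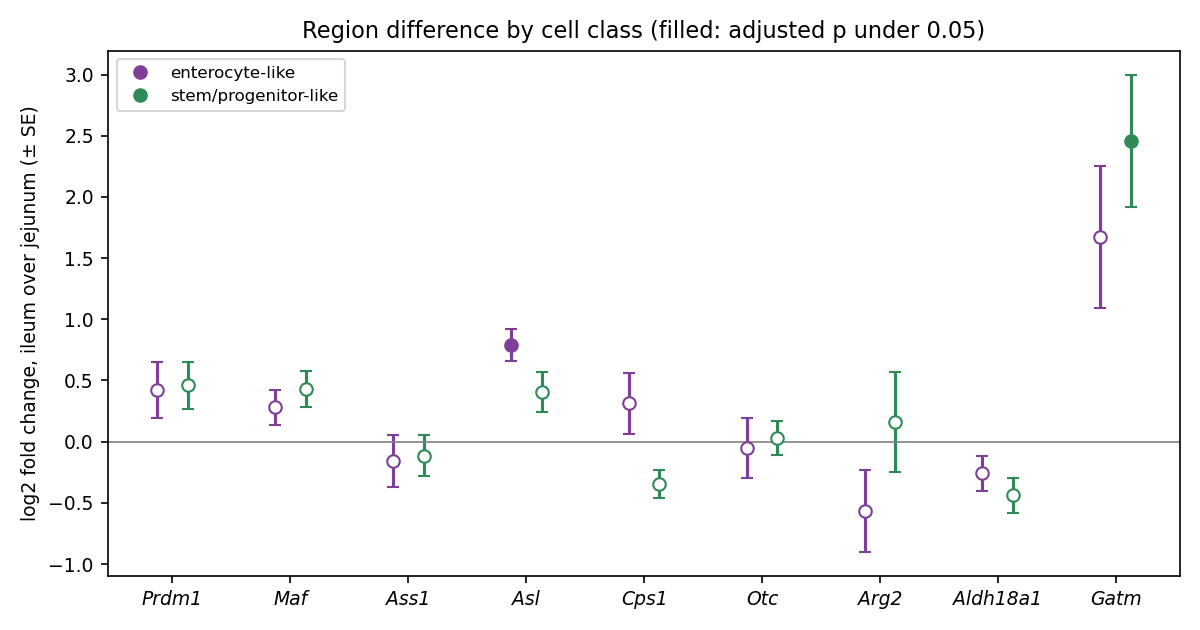
Log2 fold change of ileum over jejunum (y axis) for each of the 9 genes (x axis) by cell class, with bars of 1 SE from edgeR, 2 libraries per region, and filled points where the adjusted p was under 0.05. Asl in enterocyte-like cells (0.79) and Gatm in stem/progenitor-like cells (2.46) are filled, and Cps1 lies on opposite sides of 0 in the classes (0.31 and -0.35).

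The region differences were also read within the enterocyte-like clusters, of which 13 held at least 20 cells of every library. Prdm1, Maf and Asl were higher in ileum than in jejunum of the same mouse in 13 of 13 clusters in both mice. Gatm was higher in ileum in both mice in 12 clusters. Aldh18a1 was higher in jejunum in both mice in 12. Cps1, Otc and Ass1 differed by mouse: in mouse 2 the ileum was higher in 13, 13 and 10 clusters, and in mouse 1 in 7, 2 and 1. Clusters of 1 library share their depth and processing, so these counts are not independent evidence of a region difference and carry no test. The share of all genes with the same direction in every cluster was not computed. For the levels of enterocyte-like cells, 61.7% of genes separated by region. These counts are therefore not read as a result about the members.

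**Figure D3:**
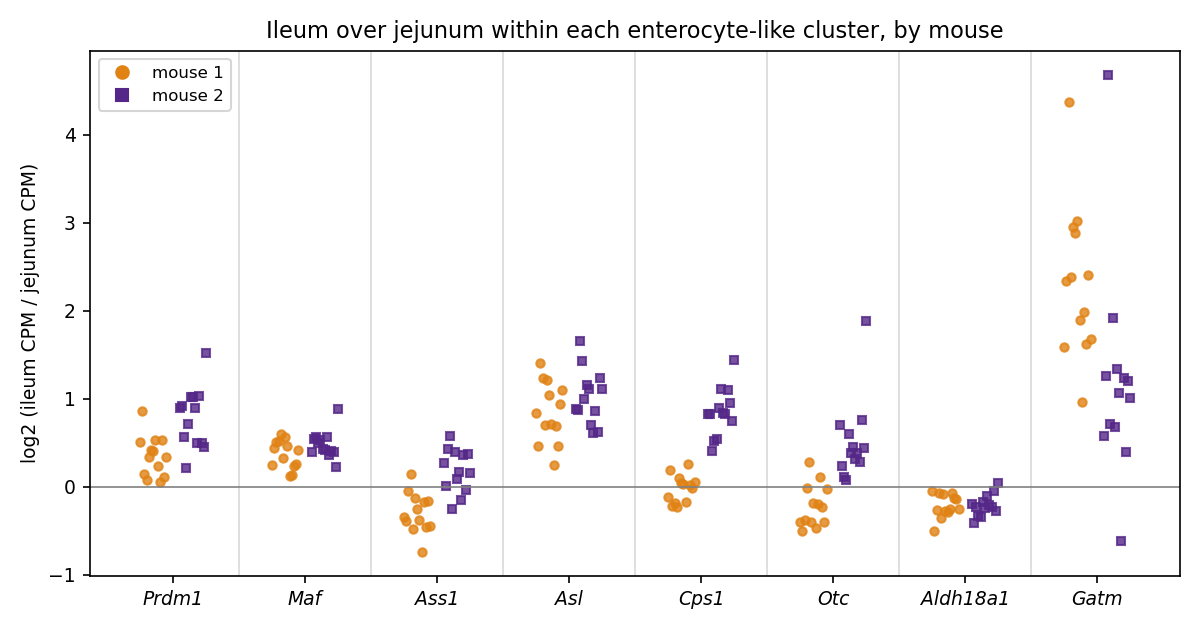
Log2 ratio of ileum to jejunum CPM of the same mouse (y axis) for each member except Arg2 (x axis), with 1 point for each of the 13 enterocyte-like clusters in mouse 1 and in mouse 2. All points of Prdm1, Maf and Asl lie above 0, nearly all of Aldh18a1 lie below 0, and for Cps1, Otc and Ass1 the points of mouse 2 lie mostly above 0 and those of mouse 1 around or below it.

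Among these 13 enterocyte-like clusters the levels differed most in Gatm and Otc, apart from Arg2 with its few UMIs. The mean of Gatm over the 4 libraries ran from 11.4 CPM in a cluster led by Snhg20 and 19.5 CPM in a cluster led by Fabp6, the ileal bile acid binding protein, to 161 CPM in a cluster led by osteocalcin genes (Bglap3) and 270 CPM in a cluster led by Sprr2a2 and Enpp3, a 23.6-fold range. Otc ran the other way, from 44.1 CPM in the Sprr2a2 cluster to 215 CPM in the Fabp6 cluster. Of the 13, the cluster with the most Gatm thus had the least Otc, and the cluster with the most Otc had the second lowest Gatm. The range was 1.46-fold for Maf, 1.58-fold for Aldh18a1, 2.02-fold for Prdm1, 2.31-fold for Asl, 2.46-fold for Ass1 and 2.69-fold for Cps1. In the stem-like class the cycling cluster, led by Olfm4, Ccna2 and Mki67, and the cluster led by Olfm4, Lgr5 and Kcnq1 had Cps1 at 1657 and 1997 CPM, Otc at 159 and 130.4 CPM, Prdm1 at 147 and 163 CPM and Arg2 at 8.19 and 8.05 CPM. These are descriptions, since the genes took part in the clustering.

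One further enterocyte-like cluster, led by Reg3g, Reg3b and Afp, held 603 and 502 cells of the ileum libraries and 7 and 2 of the jejunum libraries. Its Gatm level was 489.8 CPM in ileum 1 and 209 CPM in ileum 2, above those of the Sprr2a2 cluster (452 and 156 CPM), and its Otc level was 73.4 and 104 CPM. Without it, enterocyte-like Gatm was at 233, 61.5, 59.2 and 36.9 CPM in ileum 1, jejunum 1, ileum 2 and jejunum 2, with ileum 2 now below jejunum 1, and the difference was 1.43 (edgeR adjusted p = 0.197). Asl stayed called without it, at 0.73 (edgeR adjusted p = 0.0398). The unnamed cluster led by Nt5e, outside the enterocyte-like class, had Otc at a mean of 28.6 CPM and Gatm at 84.6 CPM.

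Because the ileum libraries were deeper, the share of cells with at least 1 UMI of a gene was compared with every cell thinned to 2000 UMIs, and shallower cells left out (35 to 537 enterocyte-like cells per library). With 2 libraries per region an exact two-sided permutation test cannot go below p = 0.333. Asl was detected in 49.9% and 51.8% of enterocyte-like cells in ileum 1 and ileum 2 and in 35.8% and 33.95% in jejunum 1 and jejunum 2. Prdm1 was in 31.4% and 27.2% against 24.8% and 15.7%, and Maf in 89.4% and 91.4% against 82.5% and 82.3%. Gatm was in 30.8% and 11.03% against 9.21% and 5.67%. For these 4 genes the ileum shares lay above the jejunum shares. Aldh18a1 was lower in ileum, at 57.6% and 59.95% against 61.9% and 61.2%, and Cps1 was higher, at 81.6% and 90.4% against 79.8% and 67.3%, whereas Ass1 (71.95% to 81.1%) and Otc (17.2% to 22.1%) overlapped. Arg2 was in 0.132% to 0.195% of these cells. The share of all genes whose regions separate by this measure was not computed, and for the levels of enterocyte-like cells it was 61.7%. These separations are therefore not read as a result about the members. The ileum-minus-jejunum difference of Cps1, 12.4 percentage points, was 6.05 points with overlapping regions under a mitochondrial limit of 10% and 6.17 points without jejunum 2.

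The same shares were read in enteroendocrine-like cells, which make hormones and are not known for arginine synthesis. They are not a pure measure of free RNA, since they held more enterocyte marker RNA than stem-like cells did in every library. Cps1 was in 87.0% to 92.5% of stem-like cells and 24.4% to 29.9% of enteroendocrine-like cells, and Otc in 20.6% to 28.5% and 1.39% to 2.99%. Prdm1 was in 17.0% to 29.4% and 4.44% to 16.4%. The stem-like shares of these 3 genes were above the enteroendocrine-like share in every library. Ass1 was in 9.89% to 10.98% of stem-like cells but 15.6% to 30.6% of enteroendocrine-like cells, and Maf in 19.4% to 29.1% and 23.7% to 47.2%. These latter stem-like shares were below the enteroendocrine-like share of the same library. Since enteroendocrine-like cells held more enterocyte marker RNA, the shares are not read as expression by stem-like cells or as its absence. The part of free RNA in them was not tested. For Asl the mean share was 14.4% in stem-like and 22.1% in enteroendocrine-like cells of ileum, and 11.9% and 4.76% in jejunum. The stem-like level of Asl is not read as expression by stem-like cells or as its absence in either region. Gatm was in 0.258% to 4.52% of stem-like cells and 10.4% to 25.4% of enteroendocrine-like cells, in which its level was above that of enterocyte-like cells in all libraries but ileum 1, so this comparison gives no background for Gatm. Median depth before thinning was 14291, 5254.5, 12422.5 and 6562 UMIs in enterocyte-like and 5125.5, 4841, 4476 and 6827 UMIs in stem-like cells of ileum 1, jejunum 1, ileum 2 and jejunum 2. In enteroendocrine-like cells it was 3194, 3198, 3424 and 5328 UMIs in the same order.

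Position along the villus was approximated by a score, the share of UMIs from 10 genes known to rise toward the tip, and the upper and lower tertiles of enterocyte-like cells were compared within each library. The score is a range and not a cell type: 18.3% to 21.2% of cells lay within 5% of a cut, and the score genes Ada, Nt5e and Pkib were at or below 3.996 CPM in every library. Cells of the unnamed cluster led by Nt5e, itself a score gene, were not in the tertiles. Gatm rose from the lower to the upper tertile, from 122 to 385 CPM in ileum 1, from 35.7 to 119 CPM in ileum 2, from 33.8 to 91.5 CPM in jejunum 1 and from 25.0 to 51.6 CPM in jejunum 2. All 4 libraries moved the same way. The change was 1.54 ± 0.13 log2 (edgeR adjusted p = 0.0209), the only one of the 9 called, against 6.19% of 17031 genes. With every cell thinned to 2000 UMIs it was 1.09 ± 0.07 (edgeR adjusted p = 7.15e-08). The call was lost without ileum 2 (1.44, edgeR adjusted p = 0.0866) and without jejunum 1 (1.58, edgeR adjusted p = 0.0522), where 1 and 9 genes in all were called.

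In 5 of the 9 genes the change along the score differed between regions, in a test that called 13.0% of all genes. Otc fell toward the upper tertile in ileum, from 132.5 to 60.7 CPM in ileum 1 and from 177.5 to 102 CPM in ileum 2, and went from 104 to 116 CPM and from 102 to 118 CPM in jejunum. The difference of the changes was -1.05 ± 0.11 log2 (edgeR adjusted p = 2.30e-04). Cps1 differed by -0.43 ± 0.10 (edgeR adjusted p = 0.0163), and Ass1, Asl and Gatm by 0.38 ± 0.11, 0.43 ± 0.10 and 0.53 ± 0.13 (edgeR adjusted p = 0.0429, 0.0136 and 0.0244). Depth moved with the score: the median was 8450 and 9284 UMIs in the lower and 16814 and 12731 UMIs in the upper tertile of the ileum libraries, and 3647.5 and 4836 against 6609.5 and 8851 UMIs in jejunum. The mitochondrial share in jejunum was 8.93% and 12.6% in the lower against 4.46% and 6.59% in the upper tertile. After thinning to 2000 UMIs none of the 5 differences was called, and they were -0.25 for Otc, -0.16 for Cps1, 0.26 for Ass1, 0.25 for Asl and 0.14 for Gatm (edgeR adjusted p = 0.344, 0.423, 0.137, 0.202 and 0.735). The same thinned test called 328 genes. In it the score and its tertiles were cut anew from the thinned counts. With all UMIs the median score of a tertile was 0.107% to 0.308%, so a thinned cell held few score UMIs. The loss of calls therefore cannot tell an effect of depth from a noisier score. Without jejunum 2 the calls of Cps1, Ass1, Asl and Gatm were lost (-0.39, 0.24, 0.33 and 0.30), that of Cps1 also under a mitochondrial limit of 10% (-0.27), and that of Ass1 also without ileum 1 (0.30) and without jejunum 1 (0.45).

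**Figure D4:**
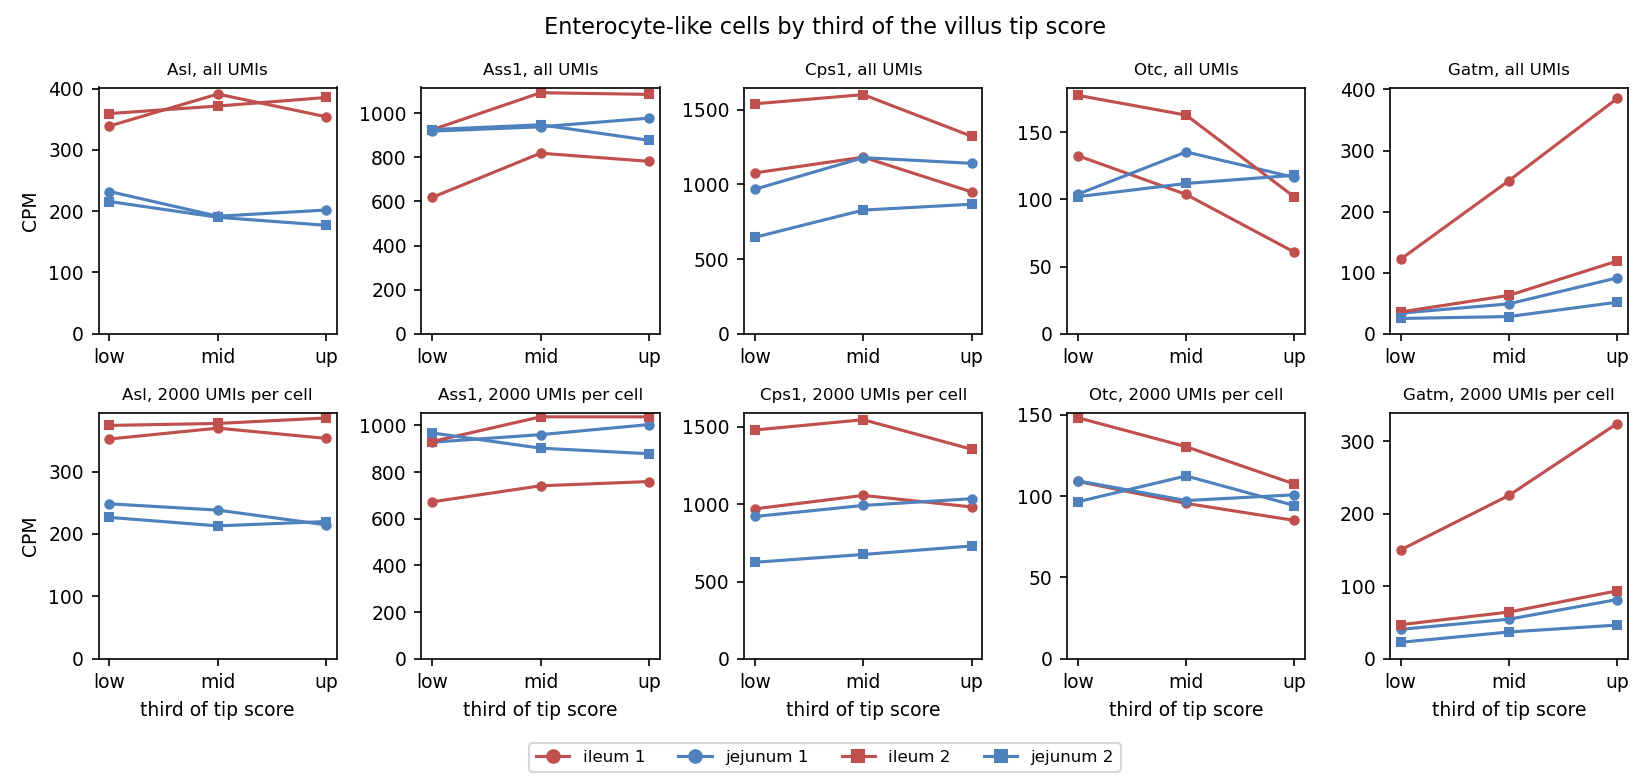
Level in CPM of Asl, Ass1, Cps1, Otc and Gatm in the lower, middle and upper tertile (low, mid, up) of enterocyte-like cells by villus tip score, 1 line per library, from all UMIs (upper row) and with each cell thinned to 2000 UMIs (lower row). Gatm climbs in all 4 libraries in both rows, and the fall of Otc in ileum 1, from 132.5 to 60.7 CPM with all UMIs, is smaller after thinning. The lower row uses tertiles cut anew from the thinned counts.

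Other genes of arginine metabolism were read from lists of 52 genes, of which 50 were tested between regions in enterocyte-like cells. Of these, 2 were called higher in ileum, against 3.86% of all genes, 1 lower, against 2.87%, and 47 were not called. Prodh, which oxidises proline to the precursor that Oat can turn into ornithine, was at 69.4 and 124 CPM in ileum 1 and ileum 2 and at 28.2 and 14.3 CPM in jejunum 1 and jejunum 2 (2.10 ± 0.42, edgeR adjusted p = 0.0486). Its call was lost when the regions were paired by mouse (edgeR adjusted p = 0.0522), with clusters formed without integration (0.0620), with no filter on low counts (0.0573) and without ileum 1, ileum 2 or jejunum 2 (0.0607, 0.0945 and 0.0584). Slc3a1, a subunit of the apical carrier for cystine and basic amino acids, was at 186 and 189 CPM against 93.9 and 89.2 CPM (0.92 ± 0.13, edgeR adjusted p = 0.0260), a call lost without ileum 1, ileum 2 or jejunum 2 (edgeR adjusted p = 0.0732, 0.0621 and 0.0611). Ckb, the brain type creatine kinase, was lower in ileum, at 57.6 and 85.7 CPM against 221 and 334 CPM (-2.07 ± 0.32, edgeR adjusted p = 0.0294), a call lost without ileum 1 (edgeR adjusted p = 0.0854) and with clusters formed without integration (edgeR adjusted p = 0.0509). Ckb was also the single gene called among 43 tested in stem-like cells, at 247 and 231 CPM in ileum and 337 and 423 CPM in jejunum (-0.71 ± 0.15, edgeR adjusted p = 0.0378), where 0.805% of all genes were called higher and 1.02% lower. That call was lost without ileum 1, ileum 2 or jejunum 2 (edgeR adjusted p = 0.133, 0.143 and 0.235).

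The direct partners of the 9 enzymes and factors did not pass the test between regions in enterocyte-like cells. Nags, which makes the activator of Cps1, was at 37.9 and 43.0 CPM in ileum and 31.5 and 32.8 CPM in jejunum (0.22 ± 0.16, edgeR adjusted p = 0.402). The ornithine carrier Slc25a15 was at 252 and 292 CPM against 285 and 286 CPM (-0.18 ± 0.16, edgeR adjusted p = 0.479), and Oat was at 1558 and 2106 CPM against 1770 and 1746 CPM (-0.05 ± 0.21, edgeR adjusted p = 0.904). The values of both overlapped between regions. Gamt, which completes creatine synthesis after Gatm, was at 19.6 and 36.3 CPM against 37.9 and 38.4 CPM (-0.55 ± 0.32, edgeR adjusted p = 0.314). The creatine carrier Slc6a8 was at 419 and 414 CPM against 260 and 259 CPM (0.57 ± 0.13, edgeR adjusted p = 0.0616) and was called with the pairing by mouse (edgeR adjusted p = 0.0337), over all kept cells (edgeR adjusted p = 0.0389) and with DESeq2 (adjusted p = 0.00344). None of the 10 listed regulators and weaning signals was called. Sis and Treh, disaccharidases of the adult brush border, were at 0.244 to 0.681 CPM and 0.538 to 5.96 CPM and were not called.

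In the test of the region change between classes, 7 listed genes were called higher and 3 lower of 50 tested, against 5.13% and 3.20% of all genes. Prodh (2.03, edgeR adjusted p = 7.70e-05) and Slc3a1 (0.83, edgeR adjusted p = 0.0417) were among the former, and Ckb (-1.33, edgeR adjusted p = 2.91e-05) among the latter. Along the tip score 4 of 49 were called higher and 2 lower, against 4.19% and 2.00%, and the change along the score was called higher in ileum for 2 and lower for 11, against 5.80% and 7.23%. These counts are from all UMIs, and depth moved with the score. The test of the change between regions called 2220 genes with all UMIs and 328 after thinning, and the listed genes were not counted after thinning. The 4 called higher along the score were Got1, Slc25a22, Slc6a8 and Slc3a1.

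The genes most alike in pattern were found by Pearson's r of log2 levels over 81 points, each a cluster in a library, among 7332 genes. The points share libraries and depth, so r is a description. Maf was most like Cmtm8, Enpep and Renbp (r = 0.965, 0.959 and 0.959), Ass1 had Ehd1 and Pdzk1 among its 3 closest (0.970 and 0.966), and Asl was most like Dpp7, Ctsh and Snx8 (0.958, 0.945 and 0.935). Cps1 was most like Sypl, Suclg2 and Oat (0.842, 0.834 and 0.777), Otc most like Aldh1b1, Agmat and Sdr16c5 (0.854, 0.852 and 0.804), and Aldh18a1 most like Acsl5, Bdh1 and Slc25a15 (0.901, 0.901 and 0.890). Oat and Slc25a15, both of ornithine metabolism, thus stood among the closest genes of Cps1 and Aldh18a1. Prdm1 had weaker matches, with Mtus1, Pld1 and Igf2bp3 at 0.820, 0.795 and 0.771, and Gatm had Dmxl2, Ggh and Ece1 at 0.854, 0.845 and 0.842. Arg2 was too low to be ranked.

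Between the members, the correlation of Maf with Ass1 was 0.912 over all points and 0.276 over the 57 enterocyte-like points, whereas that of Maf with Asl was 0.887 and 0.835. The former therefore rested on the difference between classes. Cps1 correlated with Otc at 0.746 and 0.470 and with Prdm1 at 0.639 and 0.622, and Otc with Gatm at -0.527 and -0.608.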

How the data were processed

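Jejunal and ileal epithelium of 2 mice was measured by droplet single-cell 3′ RNA sequencing (PIPseq). The authors ran PIPseeker at sensitivity 3, with GRCm39 named in the submitters' processing notes, and deposited raw UMI counts per gene and cell, without normalization. Here cells with 1000 to 6000 genes and under 20% mitochondrial UMIs were kept, integrated and clustered in Seurat 5.3.0 (CCA integration and resolution 1 as in the study's methods, 2000 variable genes and 30 dimensions chosen here), and clusters were named from marker lists. Scrublet in scanpy 1.11.5 marked 1 to 2 cells per library, so it did not work and no doublets were removed; an alternative left out the highest 6% of scores. Total depth was 378810858 UMIs.

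Counts were summed per library and class and tested with edgeR 4.0.16 (filterByExpr, TMM, quasi-likelihood), with no block, since the study states no model. Regions of a mouse share the animal, so the numbers pair libraries; their deviations from the group means correlated at 0.293 for enterocyte-like sums and 0.255 for stem/progenitor-like sums. A binomial interval on a share and p-values over 2 mice cover counting error and these mice only. Alternatives were DESeq2 1.42.0, no filter on low counts, other clusterings, a 10% mitochondrial limit, thinning and leaving out each library. Members were chosen by name, the lists by pathway, and named genes were all members, listed genes called between regions, direct partners of member enzymes and the 3 genes most alike in pattern. Sis, Treh, Got1 and Slc25a22 were added after their values were seen. The members and lists were chosen with earlier results of these data known. Some genes that these rules name are not reported here. Sequences came from RefSeq.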

Additional observations from a re-analysis of the deposited data

Results flagged for a closer look

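The region change of Cps1 differed between enterocyte-like and stem/progenitor-like cells by 0.69 log2, in the test of that difference.

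The change along the villus tip score differed between ileum and jejunum, in the test of the difference itself, for 5 members, at -1.05 log2 for Otc, -0.43 for Cps1, 0.38 for Ass1, 0.43 for Asl and 0.53 for Gatm. None of these 5 was called with each cell thinned to 2000 UMIs, where the tertiles were cut anew from fewer score UMIs. No member was tested for a library far from the others, since each region held 2 libraries.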

How the results depend on the processing

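In enterocyte-like cells 1320 genes were called between regions, against 3022 with DESeq2, 2697 with the replicate block by mouse and 208 to 1786 without 1 library. With the block, 1319 of the 1320 were shared, and the calls it changed among named genes are given beside them. In stem/progenitor-like cells the count was 220, against 337 with clusters formed without the members and pathway genes, 373 without integration, 587 with no filter on low counts, 629 with the replicate block and 123 to 389 without 1 library. The difference between classes gave 1582 genes and 1041 to 1666 without 1 library. The tip score gave 1055, against 595 with a mitochondrial limit of 10%, 2161 with no filter and 1 to 1040 without 1 library, and its difference between regions gave 2220, against 328 after thinning and 1049 to 3130 without 1 library. A library left alone in its region was assumed to vary like the others. Beyond the construction of each alternative, the cause was not tested.

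Directions that turned were those of small differences. In enterocyte-like cells, with all kept cells in place of the class, Otc was 0.0091 and Oat 0.0286, and without ileum 1 Ass1 was 0.10, Otc 0.26 and Oat 0.20, while without ileum 2 Cps1 was -9.70e-04. Over the fits without 1 library, Ass1 ranged from -0.47 to 0.10, Cps1 up to 0.57, Otc from -0.46 to 0.26 and Oat from -0.33 to 0.20. In stem/progenitor-like cells Ass1 was 0.59 and 0.66 under the other clusterings and 0.0396 without the highest doublet scores. Otc there was -0.0276 under the mitochondrial limit, -0.0154 with no filter and -0.0279 to 0.0819 without 1 library, and Arg2 was -0.0249 without integration and -0.20 to 0.68 without 1 library. Without thinning, the ileum-minus-jejunum difference in the share of cells was 28.0 points in place of 9.05 for Prdm1, 32.1 in place of 13.5 for Gatm, 18.7 in place of 1.92 for Otc and 5.59 in place of -2.74 for Aldh18a1. Leaving out the cluster led by Reg3g was chosen after seeing the data.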
